A study of Mus musculus with 6 samples.

Results

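The genes described here are the chemosensory receptor genes of the mouse whose symbols start with Vmn1r, Vmn2r or Olfr, pseudogenes included, as counted in the hepatocyte line AML12. They were chosen by symbol alone, with no minimum level, and number 164 of the 25416 genes of the deposited table: 31 of family Vmn1r, 28 of family Vmn2r and 105 of family Olfr. Every gene of that table was above 0 in some library, so receptor genes without any read are not among them. Of the 164, 139 are annotated as protein-coding and 25 as pseudogenes. The GENCODE M21 annotation lists 1974 genes with such symbols, and the remainder were not analysed here. Genes called measured below are those in the deposited table. AML12 was established from hepatocytes of a mouse carrying a human TGF alpha transgene, and is 1 line. Its cells received scrambled RNA (group siNC, 3 libraries) or siRNA against Setdb1 (group siSetdb1, 3 libraries), at an amount written in the labels as 50 nm, and were harvested at 72 h for single-end sequencing of poly(A) RNA. The labels do not state whether the libraries are separate cultures, and every p-value therefore measures the spread between these samples only, which may be technical.

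As background, Vmn1r and Vmn2r genes encode the G protein-coupled receptors of the vomeronasal organ, which detects pheromones and other social cues, and Olfr genes encode the odorant receptors of the main olfactory epithelium. Vmn1r receptors have a short extracellular end and act in neurons that use the G protein subunit Gnai2, whereas Vmn2r receptors have a long extracellular domain and act in neurons that use Gnao1. The genes lie in large tandem clusters on many chromosomes, a sensory neuron expresses very few of them, and the clusters are held silent elsewhere. Setdb1 encodes a methyltransferase for lysine 9 of histone H3, a residue whose trimethylation marks silent chromatin, including silent olfactory receptor genes in sensory neurons.

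Most receptor reads that separated the groups came from a few members with close relatives beside them, so the starts of 3 coding pairs are shown to let a reader see how alike neighbouring copies are. The sequences are the leading 150 bases of each coding sequence in GENCODE M21 (GRCm38), and capitals mark bases that differ from the member printed just before. Vmn1r43 and Vmn1r42 lie on the minus strand at chr6:89870353-89870502 and chr6:89845436-89845585, in the coding exon of each gene, and differ at 20 of these 150 bases.
Vmn1r43: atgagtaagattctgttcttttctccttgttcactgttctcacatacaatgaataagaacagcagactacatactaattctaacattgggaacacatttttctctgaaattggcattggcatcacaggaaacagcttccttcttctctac
Vmn1r42: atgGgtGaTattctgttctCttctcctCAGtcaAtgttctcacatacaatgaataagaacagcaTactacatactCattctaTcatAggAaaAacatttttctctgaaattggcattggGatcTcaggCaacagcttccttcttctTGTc
Vmn1r40 and Vmn1r44 lie on the plus strand at chr6:89714203-89714352 and chr6:89893274-89893423, also in coding exons, and differ at 22 bases.
Vmn1r40: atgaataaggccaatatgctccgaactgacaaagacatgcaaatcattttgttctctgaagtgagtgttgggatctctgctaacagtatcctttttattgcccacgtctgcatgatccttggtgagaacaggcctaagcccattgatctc
Vmn1r44: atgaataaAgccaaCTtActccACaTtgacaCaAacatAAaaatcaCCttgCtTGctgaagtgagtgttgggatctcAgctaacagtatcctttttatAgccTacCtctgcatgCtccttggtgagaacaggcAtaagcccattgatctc
Vmn2r79 and Vmn2r78 lie on the plus strand at chr7:86996465-86996614 and chr7:86915349-86915498, in the exon with the start codon, and differ at 15 bases.
Vmn2r79: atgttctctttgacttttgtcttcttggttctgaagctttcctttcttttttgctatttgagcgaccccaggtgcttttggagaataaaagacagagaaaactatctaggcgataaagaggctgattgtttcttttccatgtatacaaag
Vmn2r78: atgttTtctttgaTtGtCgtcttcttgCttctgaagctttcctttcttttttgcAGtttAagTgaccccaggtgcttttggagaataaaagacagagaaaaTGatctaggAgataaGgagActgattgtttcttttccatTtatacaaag
Over the whole coding sequence the identity was 92.6% for Vmn1r43 and Vmn1r42, 89.9% for Vmn1r40 and Vmn1r44, and 96.0% for Vmn2r79 and Vmn2r78. Reads of 50 bases can fit more than 1 such copy. Among the 164 members, 27 had no 50-base window in common with a transcript of another gene, and the median share of such windows was 5.77%.

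Setdb1 itself was at 8.41, 8.54 and 9.43 FPKM (reads scaled by exon length and library total) in siNC replicates 1 to 3 and at 4.29, 4.21 and 3.29 FPKM in siSetdb1, and its log2 fold change on the log2(FPKM + 1) scale was -0.99 (SE 0.10, limma-trend adjusted p = 0.0116). With 1 library left out, that call was lost without siNC replicate 2 or 3 or siSetdb1 replicate 1 or 2 (limma-trend adjusted p of 0.0517 to 0.0629). It was kept in each such fit on recovered reads (limma-voom adjusted p of 1.34e-05 to 0.00472). Each library held 16790582 to 17835060 reads, so 1 read of a receptor gene is close to the limit of detection. Of 10 hepatocyte markers, 8 averaged at least 0.5 FPKM, while Cps1, a urea cycle enzyme, was below 0.1 FPKM in every library. Their summed level was 2830 to 3240 FPKM in siNC and 3360 to 3480 FPKM in siSetdb1, nearly all from the keratin genes Krt8 and Krt18. Krt18 was at 1710, 1660 and 1520 FPKM in siNC and 1980, 2090 and 1970 FPKM in siSetdb1. Genes of secreted liver proteins differed among themselves. Ttr was lower in siSetdb1, at 27.2, 17.2 and 38.1 against 4.49, 4.15 and 12.4 FPKM. Trf was also lower, at 25.6, 19.1 and 26.8 against 7.67, 6.42 and 11.9 FPKM. Alb (5.47, 4.05 and 14.3 against 1.88, 1.45 and 4.5) and Apoa1 overlapped between groups. Apob overlapped too, at 3.9, 9.32 and 10.3 against 11.3, 10.9 and 8.84 FPKM, and Serpina1a was at most 0.159 FPKM. Of 13 markers of olfactory sensory neurons, 9 were in the table, and their summed level was 1.16 to 1.37 FPKM in siNC and 1.69 to 1.81 FPKM in siSetdb1. Most of that sum was Omp, the olfactory marker protein gene, and Gng13, Cnga2, Cnga4, Cngb1, Ano2 and Ebf1 were below 0.1 FPKM in all 6 libraries. Of 10 listed names of vomeronasal neuron markers, 7 were in the table, and Trpc2 and Bcl11b were among those that were not. The 7 summed to 188 to 225 FPKM in siNC and 257 to 268 FPKM in siSetdb1, nearly all from Gnai2 and Ano1, which many tissues express. Neuron markers (5 of 5 measured) summed to 0.409 to 0.447 and 0.421 to 0.495 FPKM in the respective groups, and the 2 measured germ cell markers to 0 to 0.171 and 0 to 0.101 FPKM. Summed fibroblast markers (3 genes) were at 0.163 to 0.209 and 0.354 to 0.393 FPKM, macrophage markers (3 genes) at 4.22 to 6.28 and 2.17 to 3.08 FPKM, and endothelial markers (3 genes) at 0.0366 to 0.084 and 0.111 to 0.187 FPKM. The part of these markers in the receptor results was not tested. In such bulk RNA, fewer cells with a transcript and less of it per cell cannot be told apart.

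The receptor genes were nearly silent in both groups. Whole reads could be recovered from the FPKM values for 162 of the 164 members, the exceptions being Olfr56 and Olfr560, both at very low values. The members held 4149 reads over the 6 libraries, with a median of 2 reads per member. A single read was all that 66 members had, 71 members had 2 to 9 reads, 27 had at least 10 and 8 had at least 100. The 5 members with the most reads (Vmn2r79, Olfr1372-ps1, Vmn1r43, Vmn1r40 and Olfr1033) held 2828 reads, or 68.2% of the total. A read was seen in siSetdb1 alone for 45 members, in siNC alone for 44 and in both groups for 75, so the members seen in a single group were split nearly evenly. No gene of the table was at 0 in every library, so each member seen in a single group is there only through that group. At least 1 read was present for 61, 61 and 69 members in siNC and for 73, 69 and 69 members in siSetdb1, which overlap at 69. For Vmn1r these numbers were 11, 11 and 13 against 16, 17 and 19 of 31 genes, with no overlap. They include genes measured only through siSetdb1, such as Vmn1r41 and Vmn1r-ps19, so that lack of overlap is no support for a difference. For Vmn2r they were 11 in every siNC library against 15, 9 and 6 of 28, and for Olfr 39, 39 and 45 against 42, 43 and 44 of 105, both with overlap. Over all genes of the table, 19731 to 20544 had a read in siNC and 19812 to 20035 in siSetdb1, with siNC replicate 3 the highest.

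Summed by family, vomeronasal receptor reads were higher in siSetdb1 and odorant receptor reads were not. All members together had 18.9, 22.1 and 32.4 RPM (recovered reads scaled to 1000000 reads per library) in siNC replicates 1 to 3 and 54.9, 60.9 and 50.5 in siSetdb1, or 24.5 ± 7.0 against 55.4 ± 5.2 (SD, n = 3 each), a ratio of 2.26. The Vmn1r genes had 2.5, 2.01 and 2.85 RPM in siNC and 18.4, 21.3 and 14.2 in siSetdb1, a ratio of 7.31. The Vmn2r genes had 5.12, 7.01 and 10.5 against 22.4, 26.4 and 23.3 RPM, a ratio of 3.19. In both vomeronasal families every siSetdb1 library was above every siNC library. The Olfr genes had 11.3, 13.1 and 19.1 against 14.2, 13.2 and 13.0 RPM, a ratio of 0.93, and the groups overlapped. These sums rest on few genes. The 9 measured genes of a Vmn1r cluster on chromosome 6 made up 46.5% of the difference between the groups and Vmn2r79 alone made up 48.1%. The other 154 members summed to 17.9 ± 4.8 RPM in siNC and 19.5 ± 1.2 in siSetdb1, a ratio of 1.09 with overlapping groups. That sum joins opposite directions and does not show that these members were unchanged. Olfr1372-ps1, the largest of them, had 318 reads in siNC and 174 in siSetdb1. For the rest the ratio was 2.13 over 22 Vmn1r genes, 1.67 over 27 Vmn2r genes and 1.22 over 104 Olfr genes. No test was applied to sums, since the members were not drawn independently of the result.

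**Figure D1:**
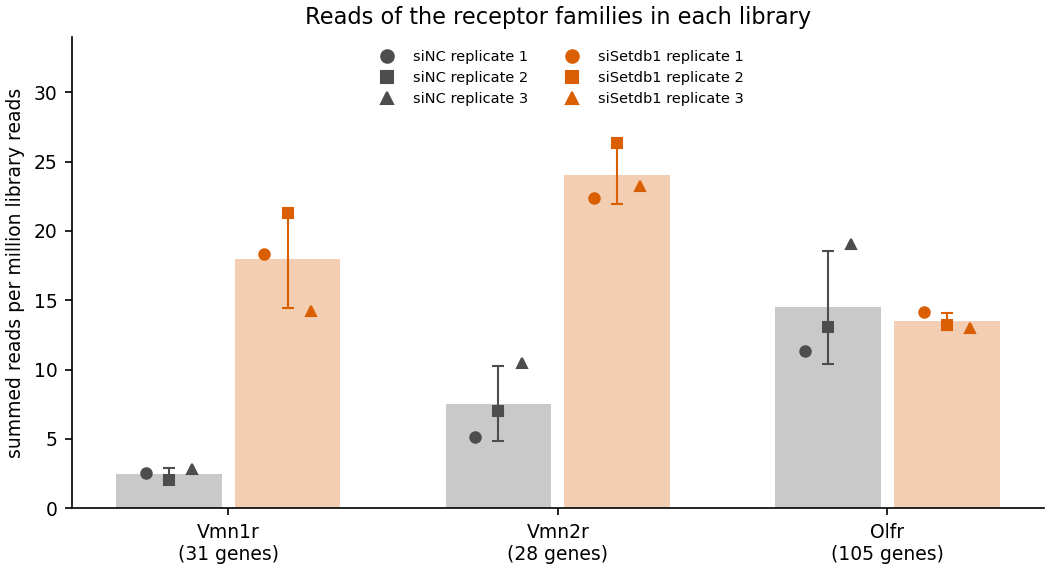
Summed RPM (y axis) for the 31 Vmn1r, 28 Vmn2r and 105 Olfr genes (x axis) in siNC (grey) and siSetdb1 (orange). Bars are means, error bars are the SD of 3 libraries and points are single libraries. Vmn1r and Vmn2r points of the groups do not overlap, and Olfr points do, with siNC replicate 3 the highest at 19.1.

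Gene by gene, a small number of members differed between the groups, and those were mainly vomeronasal. In the limma-trend fit on log2(FPKM + 1), run on all 25416 genes with no filter, 6 members rose and none fell at an adjusted p below 0.05, where 3.5% of all genes passed, 1.81% higher and 1.69% lower. The 6 were Vmn1r40, Vmn1r43, Vmn1r44, Vmn1r-ps28, Vmn2r79 and Vmn2r-ps126. At an unadjusted p below 0.05 there were 13 members higher and 4 lower, or 10.4% of members, where 18.8% of all genes (4786) were past it. A second fit, limma-voom on the recovered reads, weights each value by the spread expected at its read level. It had no filter on low counts, so its calls on few reads are uncertain. In it 11 members rose and 2 fell, where 9.52% of all genes passed, 4.91% higher and 4.61% lower. It called the same 6 and also Vmn1r41, Vmn1r42, Vmn1r28, Vmn1r-ps19 and Olfr1033 as higher, and Olfr1442 and Olfr1372-ps1 as lower. Of the members called, Vmn2r-ps126, Vmn1r41 and Vmn1r-ps19 had no read in siNC and are in the table through siSetdb1 alone. Their calls are therefore no support, although the counts given here and below include them. With a filter of at least 0.5 FPKM in 3 libraries, 15.1% of the genes tested passed, 6.87% higher and 8.27% lower. Only Vmn1r40, Vmn2r79 and Olfr1033 met that filter, each through its 3 siSetdb1 libraries, with 1 of their siNC values at that level, so the outcome of that fit for members is no support. By family, 8 of 31 Vmn1r genes, 2 of 28 Vmn2r genes and 1 of 105 Olfr genes rose in the read-based fit. The median log2 fold change of the 164 members was 0.00 in the limma-trend fit and 0.25 in the read-based fit, against 0.00 for all genes in both. The read-based median depends on single libraries. Leaving out siSetdb1 replicate 1, 2 or 3 made it 0.01, 0.12 and 0.02, respectively, and leaving out siNC replicate 2 or 3 made it 0.04 and 0.45. Without overlap between groups, 14 members were higher and 6 lower in siSetdb1, while 10.9% and 13.9% of all genes were so placed. The 95 members with fewer than 3 reads in all could not be placed so.

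The calls depend on the fit and on single libraries. With any 1 library left out, the limma-trend fit called 0 to 2 members higher: Vmn1r40 was lost without siSetdb1 replicate 1 or 2 (adjusted p = 0.0613 and 0.0627) and Vmn2r79 without siNC replicate 2 or any 1 siSetdb1 library (adjusted p of 0.0786 to 0.0962), while the other 4 were lost in each of these fits. Over all genes, the 890 calls of the limma-trend fit became 9 to 781 in the same fits. In the read-based fit, 7 members (the 6 named above and Vmn1r42) passed in all 6 such fits. One of them, Vmn2r-ps126, was measured through siSetdb1 alone. Over all genes, these fits called 818 to 2480, and how many genes passed in every one was not counted.

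A Vmn1r cluster on chromosome 6 held 6 of the 11 members that rose in the read-based fit. It spans chr6:89698719-90271213 (GRCm38) and contains 23 annotated Vmn1r genes and pseudogenes, 9 of them measured. These 9 summed to 1.55, 1.32 and 1.57 RPM in siNC and 16.1, 19.0 and 12.5 in siSetdb1, or 76 against 826 reads, a ratio of 10.7. The reads came from a stretch of 201 kb that runs from Vmn1r40 to Vmn1r-ps28 and contains 8 annotated genes. Older RefSeq names place these genes in the V1ra and V1rb receptor groups.

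Vmn1r43 (chr6:89858934-89876413, minus strand), a V1ra receptor gene, had 10, 10 and 14 reads in siNC against 132, 170 and 101 in siSetdb1. Its level rose from 0.0515 ± 0.0104 to 0.603 ± 0.167 FPKM, a ratio of 11.7 (limma-trend adjusted p = 0.0270, limma-voom adjusted p = 7.71e-09). The lowest siSetdb1 library had 101 reads and the highest siNC library 14. Vmn1r42, its neighbour and near copy, had 0, 1 and 1 reads in siNC and 9, 13 and 7 in siSetdb1 (limma-trend adjusted p = 0.0673, limma-voom adjusted p = 0.000195). The exons of these genes share 153 bases of the same strand, so their reads cannot be fully assigned. The exons of Vmn1r43 cover far more bases than its coding sequence of 987 bases, and the deposited values do not tell where along the transcript its reads fell.

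Vmn1r40 (chr6:89707540-89716657, plus strand), a V1rb receptor gene, had 14, 11 and 9 reads in siNC and 103, 102 and 77 in siSetdb1. It rose from 0.220 ± 0.052 to 1.80 ± 0.32 FPKM, a ratio of 8.17 (log2 fold change on the log2(FPKM + 1) scale 1.19, SE 0.11, limma-trend adjusted p = 0.00861), the smallest adjusted p among the members in that fit. Only 0.981% of its 50-base windows occurred in another gene's transcripts, so shared sequence touches few of its positions. Vmn1r44 (chr6:89883660-89894888, plus strand), also a V1rb gene, had 1, 1 and 2 reads in siNC and 17, 29 and 28 in siSetdb1 (limma-trend adjusted p = 0.0231), with 5.70% of its windows shared.

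The pseudogene Vmn1r-ps28 (chr6:89907677-89908618, plus strand) had 0, 0 and 1 reads in siNC and 9, 7 and 6 in siSetdb1 (limma-trend adjusted p = 0.0252), and none of its windows was shared. Vmn1r41 had no read in siNC and 8, 4 and 1 reads in siSetdb1 (limma-trend adjusted p = 0.224, limma-voom adjusted p = 0.00271), and 53.1% of its windows also occurred in other transcripts, 52.9% in those of Vmn1r239-ps. In the read-based fit Vmn1r41 passed in 2 of the 6 fits that left out a library. It was measured through siSetdb1 alone, so these calls are no support. The other 3 measured genes of the cluster, Vmn1r-ps26, Vmn1r45 and Vmn1r54, had 1 or 2 reads in all. Past Vmn1r-ps28 there are 14 annotated genes, of which Vmn1r45 and Vmn1r54 were measured.

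**Figure D2:**
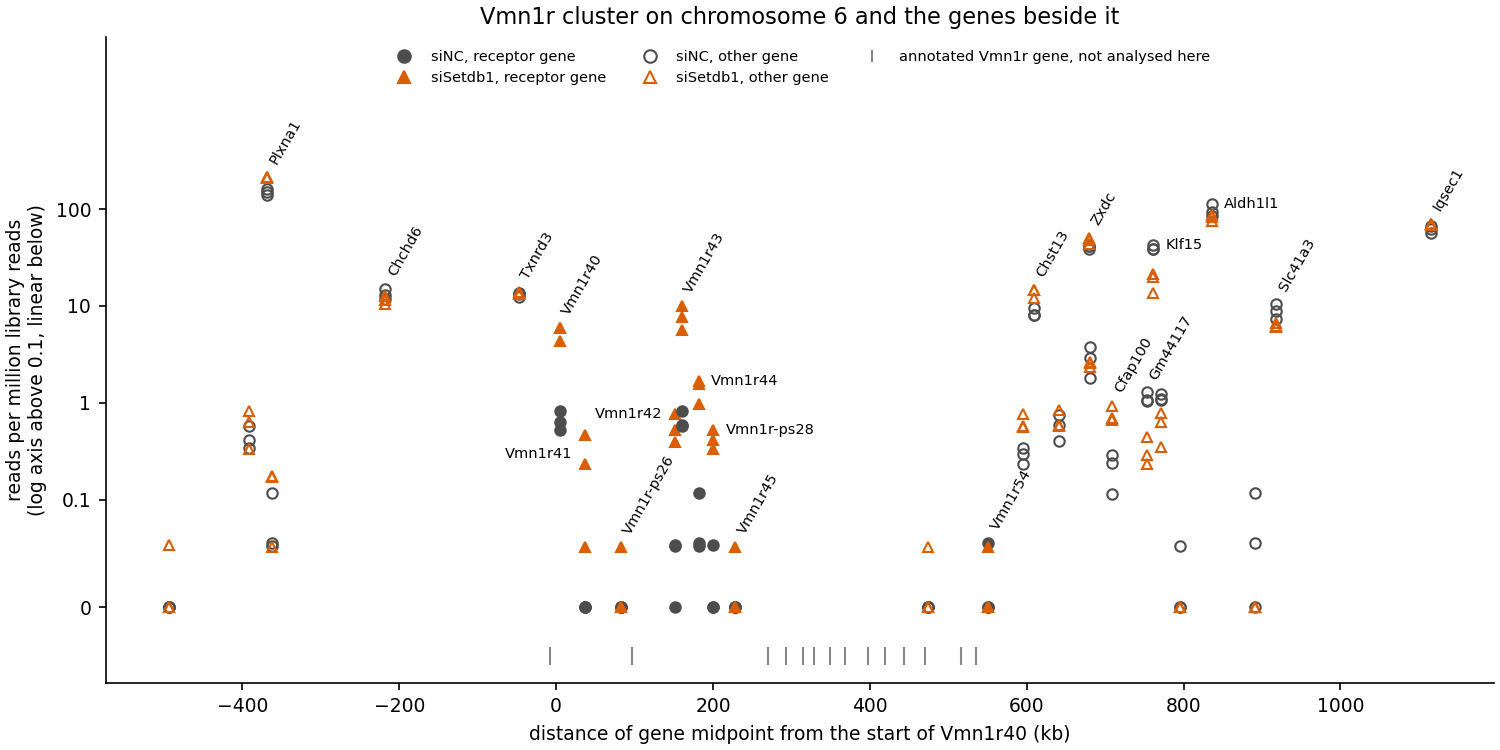
RPM (y axis, log above 0.1 and linear below) against the distance of each gene's midpoint from the start of Vmn1r40 in kb (x axis). Each point is 1 library, filled for receptor genes and open for other genes, with siNC in grey and siSetdb1 in orange; ticks at the bottom are annotated Vmn1r genes not analysed here, and some low genes carry no name. From Vmn1r40 to Vmn1r-ps28 the siSetdb1 points lie above the siNC points for 6 genes, and the flanking genes move in both directions or not at all.

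Genes beside the cluster did not share a direction. Of 21 genes outside the receptor families within 500000 bases of its measured members, 2 rose and 2 fell in the limma-trend fit. In the read-based fit 3 rose and 2 fell. Over all genes, 1.81% rose and 1.69% fell in the former fit, and 4.91% and 4.61% in the latter. Plxna1, a semaphorin receptor gene, rose from 16.7 ± 1.3 to 23.6 ± 0.3 FPKM (limma-trend adjusted p = 0.0253), and Chst13, a sulfotransferase gene, from 5.19 ± 0.53 to 8.31 ± 0.92 FPKM (0.0391). Klf15, a transcription factor gene, fell from 14.4 ± 0.9 to 6.52 ± 1.49 FPKM (limma-trend adjusted p = 0.0246), and the noncoding gene Gm44117 from 0.642 ± 0.076 to 0.184 ± 0.063 FPKM (0.0344). Txnrd3 and Chchd6 were the measured protein-coding genes closest to Vmn1r40 outside the receptor families. They were at 4.62 ± 0.23 against 4.80 ± 0.13 FPKM and at 5.26 ± 0.64 against 4.56 ± 0.47 FPKM, and neither passed in either fit.

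Outside that cluster, the 22 measured Vmn1r genes summed to 0.97 ± 0.30 RPM in siNC and 2.07 ± 0.29 in siSetdb1, a ratio of 2.13 from 50 and 108 reads. Vmn1r28, in another Vmn1r cluster of chromosome 6, had 1, 0 and 5 reads in siNC and 12, 10 and 13 in siSetdb1 (limma-trend adjusted p = 0.0942, limma-voom adjusted p = 0.00167), and passed in 4 of the 6 read-based fits that left out a library. The pseudogene Vmn1r-ps19, in the same cluster, had no read in siNC and 3, 2 and 1 in siSetdb1 (limma-voom adjusted p = 0.0230), a call made in 1 of those 6 fits. As Vmn1r-ps19 was measured through siSetdb1 alone, its call is no support. This cluster (chr6:56924015-58504737) has 44 annotated members, of which 5 were measured, with 18 reads in siNC and 64 in siSetdb1. Vmn1r4, also there, had 5, 2 and 4 against 5, 12 and 5 reads and did not pass. On chromosome 7, Vmn1r75 had 4, 3 and 3 against 9, 3 and 4 reads, and Vmn1r88 had 2, 3 and 4 against 1, 2 and 2 reads, and neither passed. Counts this low cannot show a modest difference.

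Vmn2r79 (chr7:86996115-87044941, plus strand), a pheromone receptor gene of the long-domain family, had more reads than any other member. Its reads were 51, 86 and 128 in siNC and 312, 381 and 351 in siSetdb1. It rose from 0.360 ± 0.155 to 1.402 ± 0.150 FPKM, a ratio of 3.89 (log2 fold change on the log2(FPKM + 1) scale 0.82, SE 0.11, limma-trend adjusted p = 0.0206). The siNC libraries spread widely, from 51 to 128 reads, but the groups did not overlap. Of its 50-base windows 15.0% occurred in transcripts of other genes, 5.31% in those of Vmn2r78. Vmn2r78, its upstream neighbour, had 0, 4 and 3 reads in siNC and 8, 5 and 8 in siSetdb1 and did not pass in either fit (limma-trend adjusted p = 0.238, limma-voom adjusted p = 0.0653). The cluster around them (chr7:84810387-87044941) has 59 annotated members, of which 8 were measured. Near Vmn2r79, the oxidase gene Nox4 was at 1.24 ± 0.26 FPKM in siNC and 0.666 ± 0.032 in siSetdb1, lower in the read-based fit (adjusted p = 0.00161) but not in the limma-trend fit (0.0972).

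Of the other Vmn2r genes, the pseudogene Vmn2r-ps126 (chr17:20079965-20082301, plus strand) had no read in siNC and 7, 5 and 4 reads in siSetdb1 (limma-trend adjusted p = 0.0437, limma-voom adjusted p = 5.82e-05). It was measured through siSetdb1 alone, so these calls are no support. Vmn2r13 on chromosome 5 had 24, 23 and 35 reads in siNC and 44, 49 and 47 in siSetdb1. The groups did not overlap, yet the ratio of 1.68 missed the threshold in both fits (limma-trend adjusted p = 0.209, limma-voom adjusted p = 0.0636). Without Vmn2r79 the remaining 27 Vmn2r genes summed to 2.39 ± 0.55 against 3.99 ± 0.38 RPM, a ratio of 1.67. Among all 28, the mean was higher in siSetdb1 for 12 and lower for 16.

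**Figure D3:**
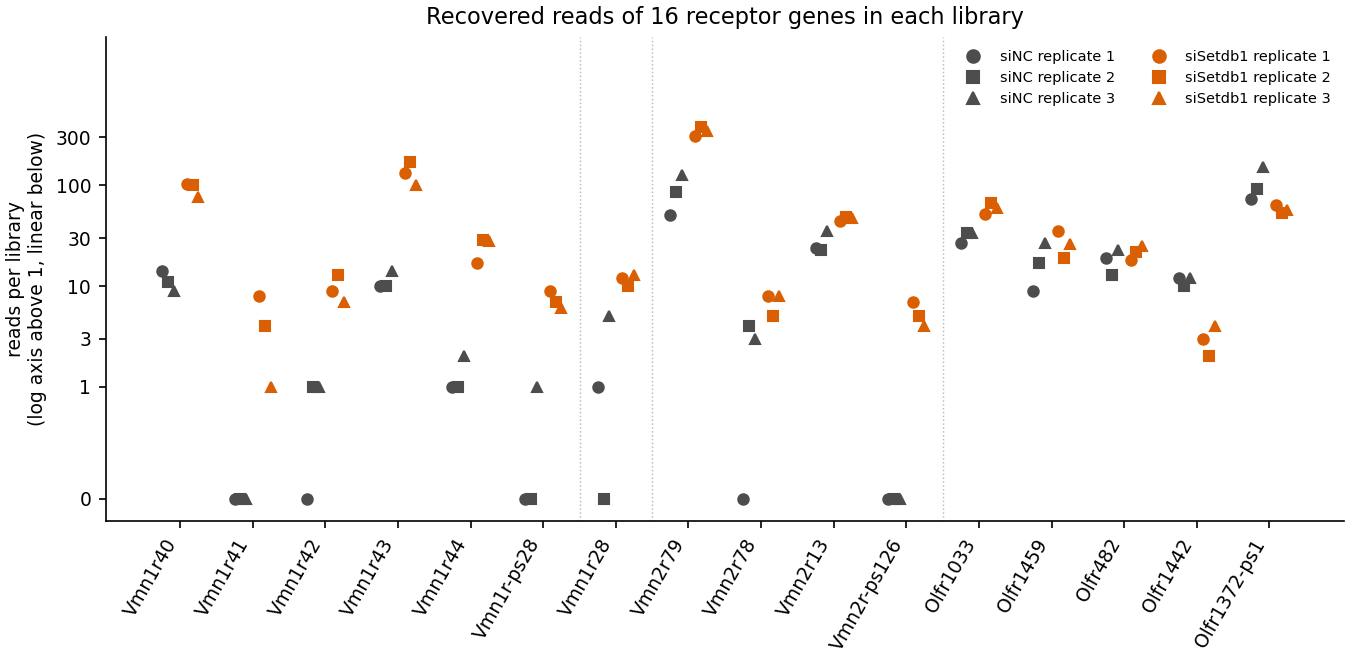
Reads per library (y axis, log above 1 and linear below) of 16 receptor genes, with the 3 siNC libraries in grey and the 3 siSetdb1 libraries in orange; dotted lines part the chromosome 6 cluster, Vmn1r28, the Vmn2r genes and the Olfr genes. The siSetdb1 points lie above the siNC points for all Vmn1r and Vmn2r genes drawn and for Olfr1033, and below them for Olfr1442 and Olfr1372-ps1. The genes were picked for drawing and do not stand for their families. Among those not drawn, Vmn1r4, Vmn1r75 and Vmn2r57 overlap between groups and Vmn1r88 is lower in siSetdb1.

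The Olfr genes as a family showed no common direction, with a higher mean in siSetdb1 for 48 of 105 and a lower mean for 57. In the limma-trend fit none of the 105 passed, with 1 higher and 4 lower at an unadjusted p below 0.05 (4.76%, against 18.8% of all genes). The read-based fit called 1 higher and 2 lower, where 9.52% of all genes passed in either direction. Olfr1033 (chr2:86020633-86045171, plus strand), an odorant receptor gene, had 27, 34 and 34 reads in siNC and 52, 67 and 60 in siSetdb1, which do not overlap. Its level was 0.433 ± 0.049 against 0.806 ± 0.108 FPKM, a ratio of 1.86 (limma-trend adjusted p = 0.0915, limma-voom adjusted p = 0.0175). Its downstream neighbour Olfr1034 had 1, 4 and 5 against 9, 6 and 7 reads and did not pass. Their cluster (chr2:85330779-90403897) has 287 annotated members, of which 9 were measured, with 113 reads in siNC and 215 in siSetdb1, a ratio of 1.88.

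Olfr1442 (chr19:12670439-12677277, plus strand) went the other way, with 12, 10 and 12 reads in siNC and 3, 2 and 4 in siSetdb1. Its level was 0.183 ± 0.021 against 0.0473 ± 0.0148 FPKM, a ratio of 0.259 (limma-trend adjusted p = 0.0953, limma-voom adjusted p = 0.0192). Of 14 genes outside the receptor families within 500000 bases of it, none rose and 4 fell in the limma-trend fit: A330040F15Rik, Cntf, Lpxn and Keg1. In that fit 1.69% of all genes fell. Keg1, an acyltransferase-like gene, fell from 1.33 ± 0.45 to 0.290 ± 0.065 FPKM (adjusted p = 0.0374), and Cntf, a neurotrophic factor gene, from 1.05 ± 0.21 to 0.394 ± 0.090 FPKM (0.0484). In the read-based fit 7 of the 14 fell, where 4.61% of all genes did. Receptor genes nearby did not share that fall. Olfr1443, the neighbour of Olfr1442, had 1, 0 and 2 reads in siNC and 0, 2 and 1 in siSetdb1. Olfr1459, in the same cluster as Olfr1442, had 9, 17 and 27 against 35, 19 and 26 reads, which overlap.

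Olfr1372-ps1 (chr11:52154722-52168159, minus strand), a transcribed pseudogene, had the most reads of its family. Its reads were 74, 93 and 151 in siNC and 64, 53 and 57 in siSetdb1, or 0.630 ± 0.235 against 0.340 ± 0.033 FPKM. The groups did not overlap, but siNC replicate 3 stood well above the other siNC libraries (limma-trend adjusted p = 0.269, limma-voom adjusted p = 0.0238). The read-based calls of Olfr1033 and Olfr1372-ps1 were each made in 1 of the 6 fits that left out a library, and that of Olfr1442 in 2. Without Olfr1372-ps1, the other 104 Olfr genes summed to 8.32 ± 1.76 RPM in siNC and 10.14 ± 0.33 in siSetdb1, a ratio of 1.22, with siNC replicate 3 at 10.3 and the lowest siSetdb1 library at 9.81. The siNC replicate 3 library also had the most genes with a read in the whole table, and its part in these values was not tested.

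Of the remaining Olfr genes with the most reads, Olfr482 on chromosome 7 had 19, 13 and 23 against 18, 22 and 25 reads, and 44.4% of its windows were shared with other transcripts. Olfr1318 on chromosome 2 had 7, 11 and 13 against 13, 6 and 2 reads, and Olfr1366 on chromosome 13 had 1, 6 and 2 against 3, 4 and 3. The pseudogene Olfr856-ps1 on chromosome 9 had 2, 2 and 4 reads in siNC and 1, 1 and 0 in siSetdb1. None of these 4 passed in either fit. Odorant receptors fall into class I, the fish-like type, and class II, the type of land vertebrates, and a class could be read from older RefSeq names for most members. The 11 class I genes had 14.6 reads in siNC (a fraction arises from the member without whole reads) and 17 in siSetdb1, and the 83 class II genes had 702 and 671.

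By chromosome, the differences followed the members named above. Members on chromosome 6 (24 genes) summed to 2.05 ± 0.40 RPM in siNC and 17.4 ± 3.4 in siSetdb1, a ratio of 8.50, and without the cluster the other 15 summed to 0.57 ± 0.27 and 1.52 ± 0.18. Chromosome 7 (33 genes) had 7.45 ± 2.96 against 22.9 ± 1.9, and 2.31 ± 0.81 against 2.88 ± 0.37 without Vmn2r79, the latter with overlapping groups. Chromosome 2 (21 genes) had 3.13 ± 0.61 against 4.64 ± 0.39 RPM, and chromosome 5 (4 genes) had 1.63 ± 0.40 against 2.70 ± 0.15, in both cases with every siSetdb1 library above every siNC library. Chromosome 11 (12 genes) had 6.61 ± 2.201 against 3.71 ± 0.48, nearly all from Olfr1372-ps1. Chromosome 19 (12 genes) had 1.92 ± 0.76 against 1.99 ± 0.28, and chromosome 17 (16 genes) had 0.37 ± 0.20 against 0.65 ± 0.25, both overlapping. The other chromosomes with members held 24 reads or fewer in each group.

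**Figure D4:**
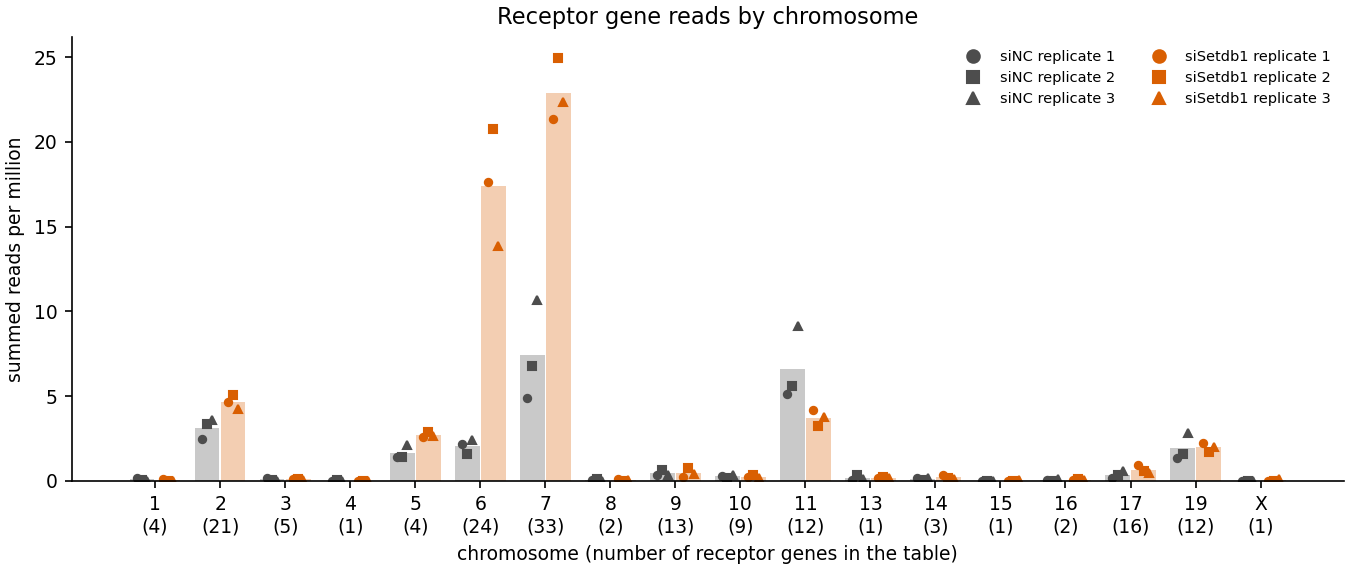
Summed RPM (y axis) of the receptor genes on each chromosome (x axis, with the number of measured genes in brackets), for siNC in grey and siSetdb1 in orange. Bars are means of 3 libraries and points are single libraries. Chromosomes 6 and 7 carry the large differences, and chromosome 11 is higher in siNC.

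A separate list of 62 genes, called the pathway list below, was also examined, and 53 of them were in the table. It held genes of signal transduction and receptor trafficking in sensory neurons, and genes for receptor choice and nuclear organisation. The latter include general chromatin genes such as Ctcf and Rad21. Taste and trace amine receptor genes, which are other chemosensory receptors, were also in the list. In the limma-trend fit 1 rose and none fell, where 3.5% of all genes passed, and in the read-based fit 4 rose and none fell, where 9.52% did. At an unadjusted p below 0.05 in the limma-trend fit, 9 were higher and 1 lower, or 18.9%, against 18.8% of all genes. Its genes had a median log2 fold change of 0.01 in the limma-trend fit, against 0.00 for all genes. Among the 17 measured signal transduction genes, Ano1, a calcium-activated chloride channel of vomeronasal neurons and many epithelia, was at 34.9, 35.0 and 31.7 FPKM in siNC and 55.3, 53.7 and 52.8 FPKM in siSetdb1, a rise of 0.66 on the log2(FPKM + 1) scale (SE 0.06, limma-trend adjusted p = 0.0105). The Ano1 call was lost without any 1 siSetdb1 library (adjusted p of 0.0587 to 0.0635). Gnai2, the G protein subunit that works with Vmn1r receptors and is found in most cells, rose in the read-based fit alone, from 165 ± 17 to 199 ± 7 FPKM (adjusted p = 0.0134). Gnao1, the partner of Vmn2r receptors, was at 5.42 ± 0.17 against 6.62 ± 0.46 FPKM and Omp at 0.771 ± 0.046 against 1.29 ± 0.08 FPKM, and neither passed in either fit (limma-trend adjusted p = 0.133 and 0.0576).

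None of the 4 measured receptor trafficking genes and none of the 8 measured taste and trace amine receptor genes passed in either fit, with 0 of either list at an unadjusted p below 0.05 in the limma-trend fit and 1 trafficking gene lower in the read-based fit. Of 24 measured genes for receptor choice and nuclear organisation, none passed in the limma-trend fit, with 4 higher and 1 lower at an unadjusted p below 0.05 (20.8%, again against 18.8%). In the read-based fit, Lmna, which encodes lamin A, rose from 85.2 ± 9.0 to 110 ± 3 FPKM (adjusted p = 0.00118), and Kmt5b, a methyltransferase gene for lysine 20 of histone H4, from 3.90 ± 0.39 to 4.96 ± 0.04 FPKM (adjusted p = 0.0178). Lbr, the gene of the lamin B receptor, which olfactory sensory neurons lack, was at 15.2 ± 1.0 against 17.7 ± 1.0 FPKM and did not pass.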

How the data were processed

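The deposited table gives 1 value per gene and library. The file headers give no unit. The deposited values behave as FPKM calculated by the authors, being whole multiples of a step set by exon length (GENCODE M21) and library total. HISAT2 2.0.4, Bowtie2 2.2.5, RSEM 1.2.12, DESeq2 1.4.5 and mm10 are listed per the submitters' processing notes, without roles. The protocols name no step that marks strand, so antisense and overlapping genes cannot be parted, and how the authors treated reads that fit several copies is not given in the sources used here. Whole reads (tolerance 0.01) were recovered for 98.6% of genes. They are reads, not unique molecules.

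The main test was limma-trend (limma 3.58.1, R 4.3.3, robust) on log2(FPKM + 1) over all genes with no filter, group as the only term, two-sided, Benjamini-Hochberg adjusted, with a threshold of 0.05. A fold change on this scale understates that of low genes. The alternative on reads was limma-voom with TMM factors over 25372 genes. Both fits were tested on simulated reads. The genes changed in that simulation held more reads than most members, so it gives no measure for members with few reads. Other alternatives were a filter of 0.5 FPKM in 3 libraries, a pseudocount of 0.1, median-ratio scaling, the replicate number as a block, and each library left out in turn. Read-based fits with a block or a library left out were added after seeing the data. Sums, numbers of genes with a read and groups without overlap carry no test. No ratio is given where siNC held fewer than 10 reads.

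Clusters join annotated receptor genes less than 1000000 bases apart. Shared windows are exact 50-base matches between GENCODE M21 transcripts. Named genes were all members called in the main test, the 20 with the most reads, members without overlap and at least 10 reads, the top member of each chromosome with 10 or more, called genes of the pathway list, and Setdb1; genes called only on reads, flanking genes, Omp, Gnao1 and Lbr were added after their values were seen. The members and lists were chosen with earlier results of these data known.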

Additional observations from a re-analysis of the deposited data

How the results depend on the processing

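The Setdb1 log2 fold change was -1.05 to -0.90 with each library left out in turn (limma-trend adjusted p of 0.0298 to 0.0629), and -1.22 to -1.04 in read-based fits. The number of members called higher, 6 in the limma-trend fit, was 2 with the filter of 0.5 FPKM (which 3 members met, through siSetdb1, so that it is no support), 11 in limma-voom, 0 to 2 with a library left out and 7 to 10 with a library left out of limma-voom. Over all genes, the number higher was 6 to 409 with a library left out of limma-trend and 487 to 1386 for limma-voom. The number of members called lower, 0, became 2 in limma-voom and 0 to 2 with a library left out of it. Over all genes, limma-voom called 1169 lower, and 316 to 1094 with a library left out. For the pathway list, the 1 gene higher became 3 with the filter, 2 with a pseudocount of 0.1, 4 in limma-voom, 0 to 2 with a library left out and 1 to 6 with a library left out of limma-voom; the 0 lower became 1 with the filter and 0 to 1 with a library left out of limma-voom. The cause was not tested.

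Both groups carry replicate numbers 1 to 3. Same-numbered libraries correlated at -0.157, 0.167 and -0.172 in their deviations from the group means, and libraries of different number at -0.204 to 0.283. With 3 libraries per group, these values cannot tell whether same-numbered libraries are matched. With the replicate block, Setdb1 stayed at -0.99 (adjusted p = 0.103), 0 members and 0 pathway genes were called higher by limma-trend, which passed 2 of all genes, and limma-voom called 11 members higher and 2 lower, and 4 pathway genes higher and 1 lower.

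The ratio of summed reads was 2.86 over protein-coding members and 1.83 without Vmn2r79 for all members, 5.69 for Vmn1r without Vmn1r43, 1.67 for Vmn2r without Vmn2r79, and for Olfr 1.25 over protein-coding genes and 1.22 without Olfr1372-ps1. With a library left out, the ratios were 2.03 to 2.70 for all members, 6.64 to 8.07 for Vmn1r, 2.75 to 3.96 for Vmn2r and 0.838 to 1.10 for Olfr, whose ratio passes 1 without siNC replicate 3. Members without overlap and lower in siSetdb1 numbered 6 to 11 with a library left out. No share over all genes was calculated for that setting, where fewer libraries part more easily, so the range is no result about members. The fitted value of Olfr1366, 0.0088, was -0.0155, -0.0031 and -0.0002 without siNC replicate 1, siNC replicate 3 and siSetdb1 replicate 2 and at most 0.0449 with a library left out, and -0.0642 to 0.972 with a library left out of limma-voom. Depth limits what can be compared: the median member had 2 reads over 6 libraries.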
